A study of Mus musculus with 6 samples.

Results

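The Ly6 surface proteins described here are 9 genes, Ly6a, Ly6c1, Ly6c2, Ly6e, Ly6d, Ly6g, Ly6h, Ly6i and Ly6k, taken by name from the 55367 gene symbols of the unfiltered table of read counts. The family was selected on the fold changes between media that these same libraries had given, and each gene was then followed in all 6 libraries, whatever its level. The cells were fibroblastic reticular cells (FRCs) of a mouse line, which in the body form the stromal scaffold of the lymph node. Messenger RNA was sequenced after 96 h in conditioned medium, with a change of medium every 48 h. One group of 2 libraries received medium from 4T1 cells, another group of 2 received medium from 67NR cells, and the control group of 2 received medium from the FRC line itself. Both tumour lines derive from the same mouse mammary tumour, and 4T1 is known to metastasise while 67NR is known not to. All 3 media had been conditioned for 24 h in plain RPMI and were supplemented with 2% serum and 1% antibiotics. No group had unconditioned medium, each line stands for itself only, and separate cultures are not stated for the libraries of a group, so that p-values measure the spread between these samples, which may be technical.

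Ly6 proteins are small cell-surface proteins with a disulfide-bonded 3-finger fold, and most are held in the membrane by a glycosylphosphatidylinositol (GPI) anchor. Many of the mouse genes lie side by side in a cluster that grew by duplication, so that several are close copies of each other. They are widely used as markers of blood cells, and Ly6a, also called Sca-1, marks stem and progenitor cells as well as subsets of fibroblasts. Ly6a, the Ly6c genes and Ly6e are known as genes that interferons can induce.

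All 9 genes lie on chromosome 15 (GRCm38, GENCODE M21), in an interval of 805.2 kb. The 5 genes with reads enough for a fit stand between 193 and 350 kb from its start, in the order Ly6e (chr15:74955051-74959905, plus strand), Ly6i (chr15:74979534-74983430, minus strand), Ly6a (chr15:74994877-74998031, minus strand), Ly6c1 (chr15:75044018-75048830, minus strand) and Ly6c2 (chr15:75108158-75111970, minus strand). Ly6g (chr15:75155240-75159126, plus strand) follows them, Ly6d (chr15:74762056-74763620, minus strand) and Ly6k (chr15:74796874-74799986, minus strand) stand at one end, and Ly6h (chr15:75551268-75567255, minus strand) at the other. Each is a protein-coding gene.

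The close copies are easiest to see in the first 120 bases of the spliced coding sequences, shown for the 4 paralogs that carry most of the differences and for Ly6g. Capitals mark the bases that differ from Ly6c1 at the same position, of which there are 6 in Ly6c2, 8 in Ly6a, 12 in Ly6i and 16 in Ly6g.
Ly6c1: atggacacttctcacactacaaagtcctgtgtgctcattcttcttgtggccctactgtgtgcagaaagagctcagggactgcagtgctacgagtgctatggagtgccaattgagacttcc
Ly6c2: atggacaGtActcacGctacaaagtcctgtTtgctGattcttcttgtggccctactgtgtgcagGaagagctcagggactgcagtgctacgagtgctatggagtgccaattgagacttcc
Ly6a: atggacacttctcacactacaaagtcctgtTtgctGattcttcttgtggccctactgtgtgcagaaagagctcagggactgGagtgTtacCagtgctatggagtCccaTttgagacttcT
Ly6i: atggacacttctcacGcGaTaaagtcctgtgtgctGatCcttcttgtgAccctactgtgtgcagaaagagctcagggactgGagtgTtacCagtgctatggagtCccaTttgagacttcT
Ly6g: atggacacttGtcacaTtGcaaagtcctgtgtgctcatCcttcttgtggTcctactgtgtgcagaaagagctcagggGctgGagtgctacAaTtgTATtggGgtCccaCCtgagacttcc
Over the whole coding sequence, Ly6c1 and Ly6c2 matched at 384 of 393 positions, or 97.7%. Ly6a matched Ly6i at 347 of 402 positions (86.3%), and Ly6c1 at 329 of 402 alignment columns (81.8%). Ly6e, at 51.9% identity with Ly6a, and Ly6d, Ly6h and Ly6k, at 45.6 to 49.8%, were no close copies of it.

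Identity of this order limits how well reads can be assigned. Of all stretches of 75 bases in the protein-coding transcripts of Ly6a, 93.7% occurred in no other gene of the annotation, against 81.0% for Ly6c1, 79.3% for Ly6c2 and 99.5% for Ly6i. With stretches of 50 bases the shares were 81.0% for Ly6a, 67.2% for Ly6c1, 68.8% for Ly6c2 and 95.2% for Ly6i. Ly6c1 and Ly6c2 shared most of their ambiguous stretches with each other, and 20.7% of the 75-base stretches of Ly6c2 were also in Ly6c1. Ly6a shared more with Ly6c1 than with Ly6i, at 5.87% against 0.458% of its 75-base stretches. With 50 bases these shares were 15.0% and 2.39%. Every 75-base stretch of Ly6e was found in that gene alone. Ly6k shared 24.5% of its 75-base stretches with Gm17189, a gene annotated over the same place. The treatment of reads that matched more than 1 gene in the counting is not given in the sources used here, and the split between Ly6c1 and Ly6c2 is the least certain.

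**Figure D1:**
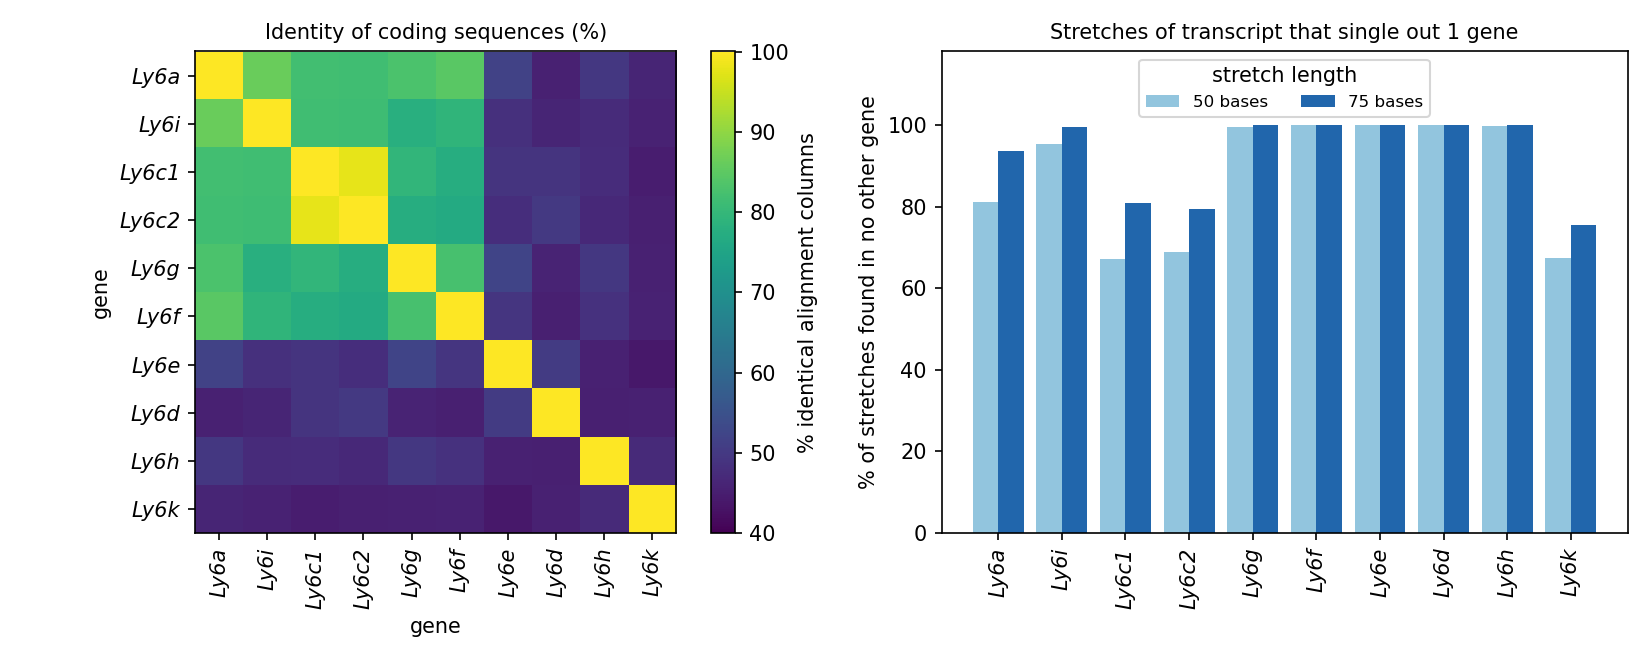
Left, percent identity of aligned coding sequences for each pair of the 9 Ly6 genes and Ly6f (colour, 40 to 100%). Right, percent of 50-base (light) and 75-base (dark) transcript stretches that occur in 1 gene only (y axis), by gene (x axis). Ly6c1 and Ly6c2 are the closest pair, and Ly6e is alone in all of its stretches.

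Promoter sequence from RefSeq (GRCm38.p6) was at hand for 3 of the 9 genes, Ly6c1, Ly6c2 and Ly6g, and for the neighbour Ly6f. It is shown for Ly6c1 and Ly6c2, which stood together at their highest in 4T1 medium, and for Ly6f, which stood at its lowest there. Each run is written 5′ to 3′ along the gene and ends where the outermost annotated transcript begins. Capitals mark matches to TATAAA, the letters of the TATA box, or to TTGCNNAA, the letters of C/EBP factors. They are matches of letters only, and whether they act in these genes was not tested. Ly6c1, Ly6c2 and Ly6g have 2 RefSeq windows each, and the window that starts nearest to the GENCODE start was used.
Ly6c1, chr15:75048921-75049087, minus strand: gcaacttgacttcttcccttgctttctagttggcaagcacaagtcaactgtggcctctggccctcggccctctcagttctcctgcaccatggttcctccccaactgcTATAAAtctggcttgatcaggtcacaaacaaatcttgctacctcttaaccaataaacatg
Ly6c2, chr15:75112067-75112221, minus strand: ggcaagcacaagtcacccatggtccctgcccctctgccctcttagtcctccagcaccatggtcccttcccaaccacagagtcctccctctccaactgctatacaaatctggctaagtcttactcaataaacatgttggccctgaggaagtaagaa
Ly6f, chr15:75268171-75268371, plus strand: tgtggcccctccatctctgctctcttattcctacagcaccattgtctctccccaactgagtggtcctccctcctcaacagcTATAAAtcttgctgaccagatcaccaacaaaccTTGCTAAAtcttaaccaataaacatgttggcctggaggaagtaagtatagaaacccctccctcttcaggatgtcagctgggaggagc
In the 250 bases before the RefSeq start, searched on both strands, TATAAA was present in Ly6c1, Ly6g and Ly6f, against 12.4% of all 32851 windows of that length. The matches begin at -143 in Ly6c1, -99 in Ly6g and -169 in Ly6f, counted from that start. The 4 windows were 46.9 to 65.9% identical in pairs, so their matches are not independent. TTGCNNAA was present in Ly6g and Ly6f and in 9.56% of all windows. TTCNNNGAA, the gamma-activated site bound by STAT factors, and the core of the interferon-stimulated response element were in none of the 4 windows, against 7.02% and 2.98% of all windows. The letters of one motif did not overlap those of another in these windows.

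The 6 libraries held 13.6 M to 21.8 M counts (M, 1e6 counts), so that 1 count stood for 0.0463 to 0.0743 CPM (counts per 1e6 at TMM-scaled library totals). A filter on low counts kept 15055 genes, among them 5 of the 9 Ly6 genes. Ly6c2 and Ly6i passed it through the 4T1 libraries alone and so had to differ. Across genes, the log CPM of 2 libraries correlated at 0.994 or more within a medium and at 0.983 or less between media. The share of counts from mitochondrial genes was 2.11% and 2.37% in 4T1 medium, 1.96% and 2.28% in 67NR medium, and 1.322% and 1.87% in control medium, and its part in the results was not tested. Of the FRC and lymph node stroma markers, 10 of 14 were kept by the filter, with Pdpn at 101.1 and 110 CPM in 4T1 medium, 97.1 and 109 in 67NR medium, and 119 and 130 in control medium. The part of these markers in the Ly6 results was not tested. Of the 10, 5 rose and 4 fell in 4T1 against control medium, where 19.9% of all genes rose and 19.2% fell. Among those that rose were Tnfsf11, the ligand of RANK (log2 fold change 2.96 ± 0.23, edgeR adjusted p = 3.44e-07), Pdgfra (1.92 ± 0.10, 1.28e-08) and the adhesion molecule Vcam1 (1.61 ± 0.07, 8.49e-10). Those that fell were Col1a2 (-1.31 ± 0.20, 1.67e-04), Col1a1 (-0.9996 ± 0.07, 1.02e-07), Pdgfrb (-0.77 ± 0.08, 4.83e-06) and Pdpn (-0.24 ± 0.08, 0.0304). Col1a2 was low throughout, with 11.2 and 15.7 CPM in control medium, where Col1a1 had 14099 and 13536 CPM. In 67NR against control medium 3 of the 10 rose and 2 fell, where 13.0% of all genes rose and 14.6% fell. In 4T1 against 67NR medium 4 rose and 3 fell, where 23.5% of all genes rose and 19.9% fell. Thy1, Ccl19 and Ccl21a, usual FRC markers in tissue, had 0 counts in every library.

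Because the Ly6 genes were chosen by their fold changes, their values are a description, and no p-value is given for them. In 4T1 medium, all 5 genes kept by the filter were higher than in control medium and higher than in 67NR medium. The log2 fold changes lay between 5.80 and 7.47 for Ly6a, Ly6c1, Ly6c2 and Ly6i in both comparisons, and at 1.97 and 1.20 for Ly6e. For 4T1 over 67NR medium they rest on few reads in 67NR medium for 2 genes: without the first or second 67NR library, Ly6c2 came to 7.03 or 8.06 and Ly6i to 5.36 or 6.41. Between 67NR medium and control medium, Ly6e was 1.70-fold higher and the other 4 genes differed by less than 1 on the log2 scale with all libraries. For Ly6c2 that bound rests on 9 counts in 67NR medium and 13 in control medium. Without the second 67NR library Ly6c2 came to -1.47. Of the 5, the number past an adjusted p of 0.05 (edgeR's quasi-likelihood test) was 5 for 4T1 against control medium, where 39.1% of all genes passed, 1 for 67NR against control medium (27.6%), and 5 for 4T1 against 67NR medium (43.4%). The libraries of the media compared did not overlap for 5 of them between 4T1 and control medium (67.4% of all genes), for 3 between 67NR and control medium (67.6%), and for 5 between 4T1 and 67NR medium (70.1%). Since the genes were chosen by these contrasts, nothing is read from those counts.

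**Figure D2:**
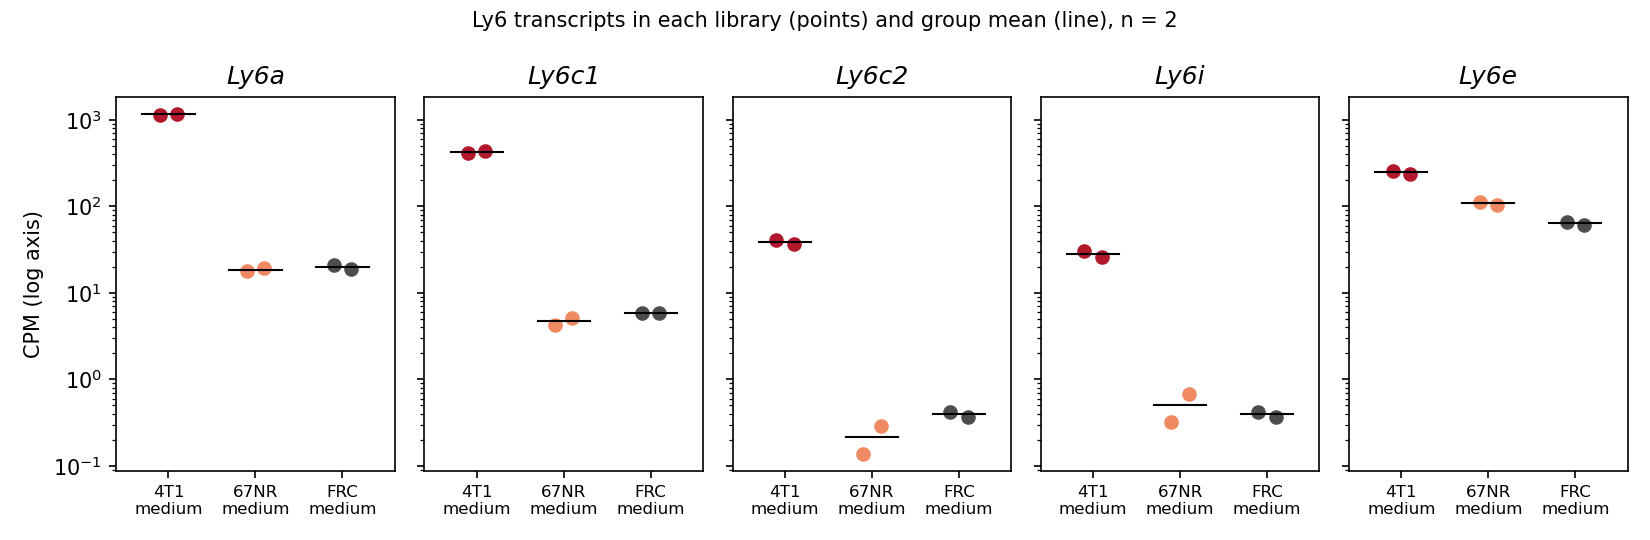
CPM on a log axis (y) of Ly6a, Ly6c1, Ly6c2, Ly6i and Ly6e in each library (points) of the 3 media (x), with the group mean as a line (n = 2 libraries per medium). The first 4 genes stand far above the other media in 4T1 medium, and Ly6e averages 250 CPM in 4T1 medium, 109 CPM in 67NR medium and 63.8 CPM in control medium with no overlap.

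Ly6a, the stem cell and fibroblast marker Sca-1, was the most abundant of the 9 in 4T1 medium. Its libraries gave 1145 and 1186 CPM in 4T1 medium, 17.7 and 19.4 CPM in 67NR medium, and 21.2 and 19.0 CPM in control medium. Both 4T1 libraries stood far above the other 4, and the 67NR and control libraries overlapped. The log2 fold change was 5.85 ± 0.09 (SE, 57.6-fold) for 4T1 over control medium, -0.13 ± 0.09 for 67NR over control medium, and 5.98 ± 0.09 for 4T1 over 67NR medium. Ordered by mean CPM among the 15055 genes, Ly6a was at place 65 in 4T1 medium, place 7985 in 67NR medium and place 7824 in control medium.

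Ly6c1, which marks endothelial cells and subsets of lymphocytes, had 413 and 436 CPM in 4T1 medium, 4.31 and 5.16 CPM in 67NR medium, and 5.92 and 5.80 CPM in control medium. The 4T1 libraries were again apart from the rest, and both 67NR libraries were just below both control libraries. The log2 fold change was 6.18 ± 0.10 (72.3-fold) for 4T1 over control medium, -0.31 ± 0.14 for 67NR over control medium, and 6.49 ± 0.10 for 4T1 over 67NR medium. Its place by mean CPM was 303 in 4T1 medium, 11250 in 67NR medium and 10895 in control medium.

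Ly6c2, the other Ly6C gene and a marker of inflammatory monocytes, was measured with few reads outside 4T1 medium. Its counts were 607 and 681 in 4T1 medium, 3 and 6 in 67NR medium, and 8 and 5 in control medium. In CPM these are 41.0 and 37.1 in 4T1 medium, 0.139 and 0.292 in 67NR medium, and 0.415 and 0.372 in control medium. Only the 4T1 libraries held more than a handful of reads. The log2 fold change was 6.59 ± 0.20 (96.5-fold) for 4T1 over control medium, -0.87 ± 0.55 for 67NR over control medium and 7.47 ± 0.21 for 4T1 over 67NR medium. From summed counts, the 95% counting interval of the ratio of 4T1 to control medium ran from 57.0 to 184, and that of 67NR to control medium from 0.203 to 1.36.

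Ly6i, the closest copy of Ly6a among the 9 genes by coding identity, was also highest in 4T1 medium, at a lower level. It had 30.6 and 26.0 CPM in 4T1 medium, 0.324 and 0.681 CPM (7 and 14 counts) in 67NR medium, and 0.415 and 0.372 CPM (8 and 5 counts) in control medium. The 67NR libraries lay on both sides of the control libraries. The log2 fold change was 6.13 ± 0.24 (69.8-fold) for 4T1 over control medium, 0.32 ± 0.51 for 67NR over control medium and 5.80 ± 0.22 for 4T1 over 67NR medium.

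Ly6e, which is broadly expressed and is known to restrict the entry of coronaviruses, differed between all 3 media. It stood at 259 and 240 CPM in 4T1 medium, 112 and 105 CPM in 67NR medium, and 66.8 and 60.7 CPM in control medium. No library of one medium overlapped with those of another. The log2 fold change was 1.97 ± 0.08 (3.90-fold) for 4T1 over control medium, 0.76 ± 0.08 (1.70-fold) for 67NR over control medium and 1.20 ± 0.07 (2.30-fold) for 4T1 over 67NR medium.

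**Figure D3:**
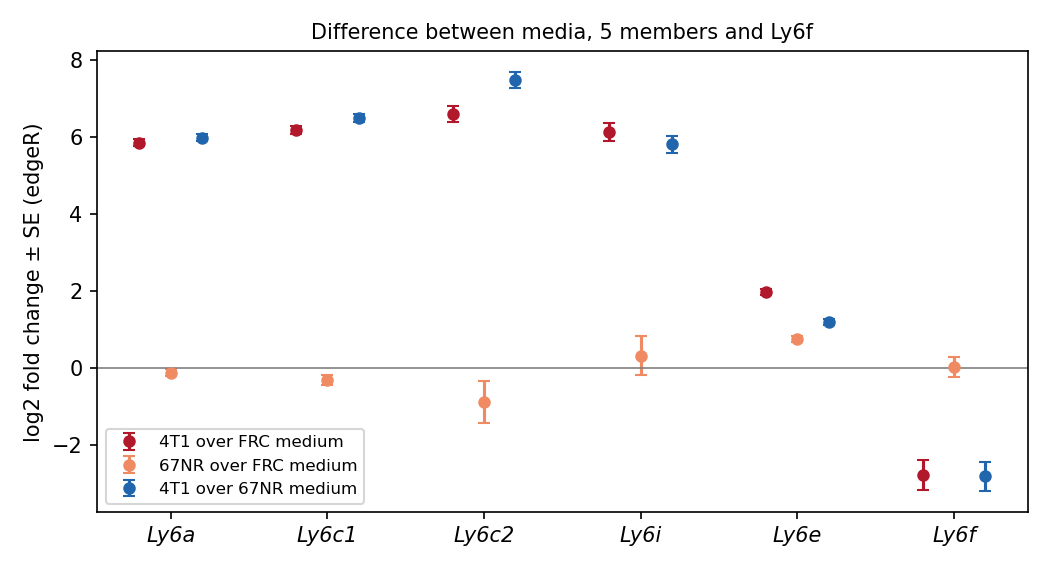
Log2 fold change with its standard error (y) for 5 Ly6 genes and the neighbour Ly6f (x), for 4T1 over FRC medium (dark red), 67NR over FRC medium (orange) and 4T1 over 67NR medium (blue), each fitted on 6 libraries. Ly6a, Ly6c1, Ly6c2 and Ly6i lie between 5.80 and 7.47 in both comparisons of 4T1 medium, Ly6e at 1.97 and 1.20, and Ly6f at -2.78 and -2.81.

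The remaining 4 genes were at or near 0. Ly6d, a marker of lymphoid progenitors and keratinocytes, had 3 counts and 1 count in the 4T1 libraries and 0 in the other 4. The lower end of the 95% counting interval of the ratio was 0.651 for 4T1 to control medium and 0.839 for 4T1 to 67NR medium, so a difference was not detectable at this depth. Ly6g, the defining marker of neutrophils, had 1 count in a 4T1 library, 1 count in a 67NR library and 0 in the control libraries. Ly6h, best known from brain, and Ly6k, known from testis and needed for sperm function in mice, had 0 counts in all 6 libraries. A count of 0 over a group allows up to 0.0905 CPM in 4T1 medium, 0.0712 CPM in 67NR medium and 0.0917 CPM in control medium, counting error only.

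Per length of the principal transcript, the order of the genes differed between media. In 4T1 medium it was Ly6a at 1423 ± 35.3 CPM per kb (SD, n = 2), Ly6c1 at 503 ± 19.6, Ly6e at 109 ± 5.91, Ly6c2 at 47.5 ± 3.39 and Ly6i at 24.5 ± 2.76, and no neighbours in that order overlapped. In 67NR medium Ly6e led at 47.6 ± 2.27 CPM per kb, before Ly6a at 22.6 ± 1.44 and Ly6c1 at 5.61 ± 0.712, while the libraries of Ly6i (0.435 ± 0.218) and Ly6c2 (0.262 ± 0.132) overlapped. In control medium Ly6e, at 28.0 ± 1.89 CPM per kb, stood close to Ly6a at 24.6 ± 1.91, and Ly6c1 followed at 6.94 ± 0.102. Divided by the length of all annotated exons, Ly6e and Ly6a came to 16.9 and 16.7 CPM per kb in control medium, and in 4T1 medium Ly6i (24.5) stood above Ly6c2 (14.3), so these neighbours have no firm order.

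As a share of the counts of all 9 genes, Ly6a made up 60.6% and 61.6% in the 4T1 libraries, 13.1% and 14.9% in the 67NR libraries, and 22.4% and 22.0% in the control libraries. Ly6e made up 13.7% and 12.5% in 4T1 medium, 83.3% and 80.4% in 67NR medium, and 70.5% and 70.4% in control medium. In 4T1 medium Ly6a and Ly6c1 thus held most of the family's reads, and in the other media Ly6e did. Together the 9 genes took 0.193% and 0.194% of all counts in 4T1 medium, 0.0133% and 0.0128% in 67NR medium, and 0.00948% and 0.00855% in control medium.

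**Figure D4:**
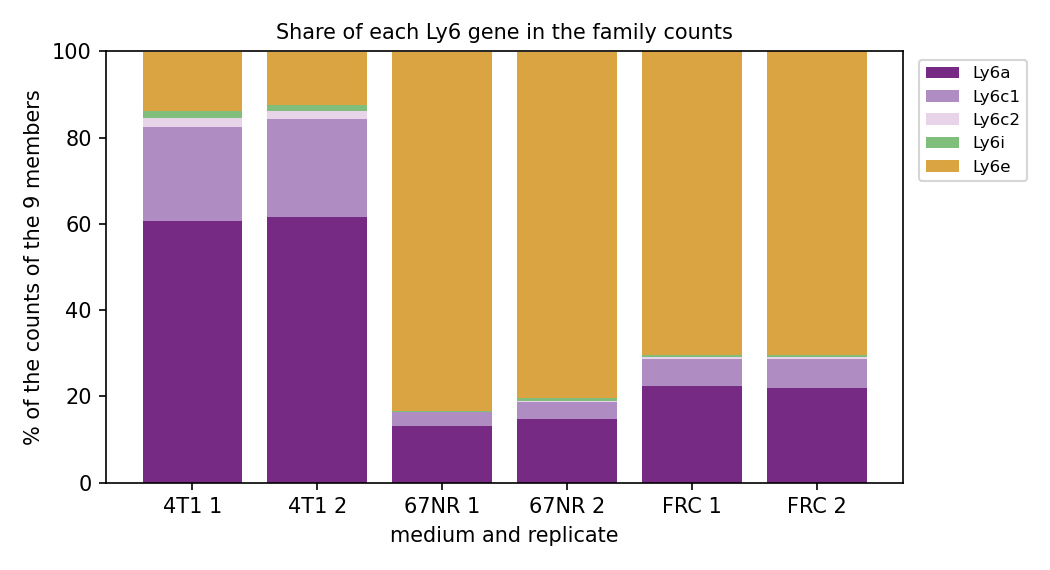
Share of the counts of the 9 Ly6 genes (y axis, percent) that each gene held in each of the 6 libraries (bars, by medium and replicate). Ly6d and Ly6g are too few to see and Ly6h and Ly6k are at 0. Ly6a holds 60.6 to 61.6% in 4T1 medium, and Ly6e 70.4 to 83.3% in the other media.

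Since copies can share reads, their counts were also set against each other. The ratio of Ly6c1 to Ly6c2 counts was 10.95 in 4T1 medium (95% counting interval 10.3 to 11.6), 22.1 in 67NR medium (11.4 to 49.1) and 14.8 in control medium (8.43 to 28.2). The ratio of Ly6a to Ly6c1 was 2.74 (2.69 to 2.80) in 4T1 medium, 3.92 (3.35 to 4.60) in 67NR medium and 3.46 (2.95 to 4.09) in control medium. For Ly6a to Ly6i it was 41.6 (39.0 to 44.5) in 4T1 medium, 37.1 (24.1 to 60.3) in 67NR medium and 51.2 (29.7 to 96.6) in control medium. The counting intervals of 4T1 medium overlapped those of both other media for Ly6c1 to Ly6c2 and for Ly6a to Ly6i, and neither of them for Ly6a to Ly6c1. By library, Ly6c1 to Ly6c2 was 10.1 and 11.8 in 4T1 medium, 31 and 17.7 in 67NR medium, and 14.2 and 15.6 in control medium, so both 4T1 libraries were lowest. Ly6a to Ly6i was 37.5 and 45.6 in 4T1 medium, 54.6 and 28.4 in 67NR medium, and 51.1 and 51.2 in control medium. For both pairs, each 4T1 library lay outside the counting interval of that medium, which covers counting error only. Overlap of these intervals therefore does not measure the spread between libraries. Whether a part of the Ly6c2 reads came from Ly6c1 was not tested. When Ly6c1 and Ly6c2 were summed into 1 gene, the log2 fold change was 6.21 for 4T1 over control medium, and with Ly6a and Ly6i added to the sum it was 5.95.

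The cluster holds 22 protein-coding genes in RefSeq, 13 of them outside the 9. Of these 13, 7 had 0 counts in every library, 5 had 1 to 50 counts in all, and Ly6f was tested. Ly6f, a close relative at 84.6% coding identity with Ly6a, had 0.406 and 0.327 CPM (6 counts each) in 4T1 medium, 2.41 and 2.77 CPM (52 and 57 counts) in 67NR medium, and 2.13 and 3.05 CPM (41 counts each) in control medium. Ly6f fell in 4T1 medium, by 2.78 ± 0.39 on the log2 scale against control medium (edgeR's quasi-likelihood test, adjusted p = 9.29e-05) and by 2.81 ± 0.38 against 67NR medium (adjusted p = 4.99e-05). Both 4T1 libraries were below all 4 others, and 67NR and control medium differed by 0.03 ± 0.26. Gm28068, a long non-coding RNA named here after its values were seen, spans Ly6i and Ly6a in RefSeq and had 14 and 9 counts in the 4T1 libraries and 0 in the other 4. With an empty group set to 3 counts in all, that is 7.57-fold over control medium and 9.74-fold over 67NR medium. The counting error of the 23 counts in 4T1 medium is not in these ratios, so they are no lower bounds. Gm28068 is annotated in GENCODE on the strand opposite to Ly6i and Ly6a. With the strand setting of the counting not given in the sources used here, its reads cannot be told apart from theirs.

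**Figure D5:**
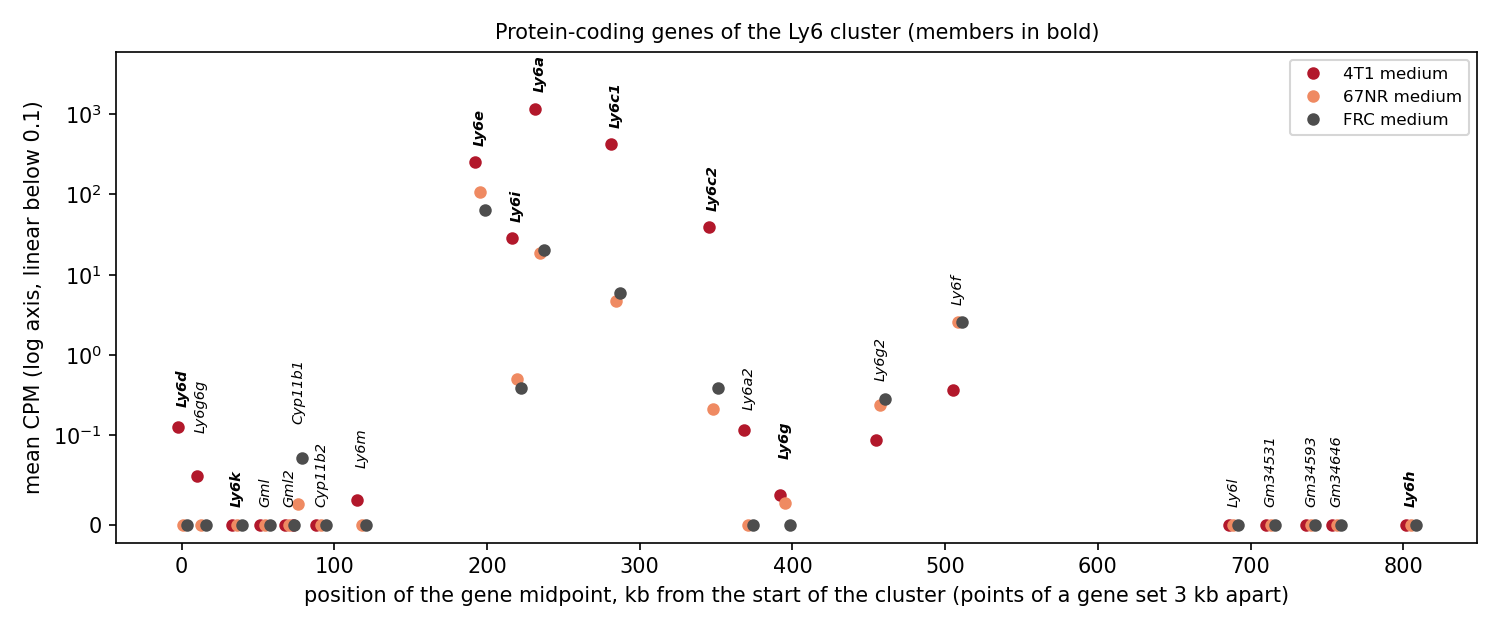
Mean CPM of 2 libraries (y, log axis, linear below 0.1) of the 22 protein-coding genes of the Ly6 cluster in 4T1 (dark red), 67NR (orange) and FRC medium (grey), by the distance of each gene's midpoint from the start of the cluster in kb (x). Ly6e, Ly6i, Ly6a, Ly6c1 and Ly6c2 lie next to each other and are highest in 4T1 medium, and Ly6f is lowest there.

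Other genes of the Ly6/uPAR family, 34 in number, were mostly silent in these cells, and 6 were tested. Ly6f, already given as a neighbour, is among these 6 and among those that fell in both comparisons of 4T1 medium. For 4T1 against control medium 2 rose and 3 fell, and the median log2 fold change was -0.87, where 19.9% of all genes rose, 19.2% fell and their median was 0.01. Plaur, the urokinase receptor, rose to 30.0 ± 4.82 CPM in 4T1 medium (SD, n = 2), against 15.0 ± 1.55 CPM in control medium (log2 fold change 0.98 ± 0.12, edgeR adjusted p = 3.56e-05). It fell to 10.4 ± 0.126 CPM in 67NR medium, by 0.54 ± 0.13 on the log2 scale against control medium (edgeR adjusted p = 0.00926). Lypd1, known as a modulator of nicotinic receptors, fell to 0.882 ± 0.091 CPM in 4T1 medium, against 7.61 ± 0.251 CPM in control medium (log2 fold change -3.11 ± 0.29, edgeR adjusted p = 2.23e-06). Lynx1, another such modulator, rose against control medium by 0.32 ± 0.08 on the log2 scale in 4T1 medium (edgeR adjusted p = 0.00882) and by 0.37 ± 0.08 in 67NR medium (edgeR adjusted p = 0.00574). Cd59a, an inhibitor of the complement membrane attack complex, rose in 67NR medium to 14.7 ± 0.848 CPM, against 9.26 ± 0.985 CPM in control medium (edgeR adjusted p = 0.00122). For 67NR against control medium 2 of the 6 rose and 1 fell, where 13.0% of all genes rose and 14.6% fell. For 4T1 against 67NR medium 1 rose and 3 fell, where 23.5% of all genes rose and 19.9% fell.

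Of 28 genes tested that make or act on the GPI anchor, 5 rose and none fell in 4T1 against control medium (median log2 fold change 0.15). In 67NR against control medium 1 rose and none fell (0.05), and in 4T1 against 67NR medium 6 rose and 2 fell (0.07). Over all genes the median lay between 0.00 and 0.03 in the 3 comparisons. Beside the shares of all genes that rose in 4T1 medium, 19.9% against control and 23.5% against 67NR medium, these rises are not a result about the list. Falls were fewer than the 19.2% of all genes against control medium and the 19.9% against 67NR medium, and that difference was not tested. In 67NR against control medium 13.0% of all genes rose and 14.6% fell, both more than in the list, which was not tested either. Pigf, of the step that adds ethanolamine phosphate, rose to 7.90 ± 0.079 CPM in 4T1 medium, against 5.02 ± 0.784 CPM in control medium (log2 fold change 0.67 ± 0.16, edgeR adjusted p = 0.00544). Pign rose to 94.0 ± 3.74 CPM in 4T1 medium, against 65.0 ± 1.67 CPM in control medium (0.53 ± 0.07, edgeR adjusted p = 5.24e-05). Pigw, of an early step of the anchor, rose to 9.95 ± 0.492 CPM in 4T1 medium, against 5.83 ± 0.267 CPM in 67NR medium (0.77 ± 0.14, edgeR adjusted p = 4.91e-04).

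The 32 interferon signalling and target genes summed to 1878 and 1959 CPM in 4T1 medium, 1629 and 1509 CPM in 67NR medium, and 984 and 969.7 CPM in control medium. Of that sum, Jak2 held 386 and 456 CPM in 4T1 medium, against 59.9 and 61.5 CPM in 67NR medium. Stat3 held 320 and 352 CPM against 199 and 190 CPM, and Socs3 211 and 224 CPM against 19.6 and 17.5 CPM. The sum thus mixes genes that moved in opposite directions between these 2 media. The part of the 32 genes in the Ly6 levels was not tested. Of 30 tested, 22 rose and 1 fell in 4T1 against control medium (median log2 fold change 0.89), and 21 rose and none fell in 67NR against control medium (1.90). In 4T1 against 67NR medium 5 rose and 19 fell (-0.60). Of all genes, 19.9% rose and 19.2% fell in 4T1 against control medium, 13.0% rose and 14.6% fell in 67NR against control medium, and 23.5% rose and 19.9% fell in 4T1 against 67NR medium. Ifi44, an interferon target, had 7.02 ± 3.46 CPM in 4T1 medium, 21.7 ± 4.55 CPM in 67NR medium and 0.790 ± 0.277 CPM in control medium, and rose against control medium by 3.05 ± 0.43 on the log2 scale in 4T1 medium (edgeR adjusted p = 9.51e-05) and by 4.71 ± 0.35 in 67NR medium (edgeR adjusted p = 7.18e-07). Ifit3 fell in 4T1 medium to 17.2 ± 6.59 CPM, against 93.0 ± 19.1 CPM in 67NR medium (log2 fold change -2.45 ± 0.19, edgeR adjusted p = 3.24e-07). Other genes of the list were highest in 4T1 medium. Socs3, a feedback inhibitor of cytokine signalling, had 217 ± 8.78 CPM in 4T1 medium, 18.6 ± 1.47 CPM in 67NR medium and 15.7 ± 1.93 CPM in control medium. Jak2, a kinase of cytokine receptors, rose to 421 ± 49.4 CPM in 4T1 medium, against 60.7 ± 1.10 CPM in 67NR medium (2.80 ± 0.08, edgeR adjusted p = 4.16e-11).

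Since several Ly6 genes mark blood cells or endothelium, the markers of those cells are given beside them. Of 23 leukocyte markers, 4 to 8 had a count in a given library, and their summed level was 5.14 and 5.45 CPM in 4T1 medium, 13.0 and 11.7 CPM in 67NR medium, and 7.11 and 8.47 CPM in control medium. Adgre1, Ccr2, S100a8, S100a9 and Spi1 had 0 counts in all libraries, and Ptprc and Itgam had 1 count each over the 6 libraries. Lyz2, the leukocyte marker with most reads, fell to 2.04 ± 0.202 CPM in 4T1 medium, against 5.25 ± 0.884 CPM in control medium (log2 fold change -1.33 ± 0.21, edgeR adjusted p = 2.48e-04). In 67NR medium Lyz2 rose to 8.99 ± 0.191 CPM (0.80 ± 0.16 over control medium, edgeR adjusted p = 0.00256). Without Lyz2, the other 22 markers together had 3.24 and 3.27 CPM in 4T1 medium, 3.85 and 2.87 CPM in 67NR medium, and 2.49 and 2.601 CPM in control medium, with 4T1 and 67NR libraries overlapping and the control libraries lowest. Csf1r, with most reads after Lyz2, had 1.76 and 1.69 CPM in 4T1 medium, 2.41 and 2.09 in 67NR medium, and 1.97 and 1.49 in control medium. Its log2 fold change for 4T1 over control medium was -0.03 ± 0.29 (edgeR adjusted p = 0.943). Cd68, a macrophage marker, had a log2 fold change of 0.78 ± 0.46 for 4T1 over control medium, which did not pass (edgeR adjusted p = 0.200). Fcer1g, of Fc receptor signalling in myeloid cells, had 2 and 8 counts in the 4T1 libraries, 3 and 0 in the 67NR libraries, and 1 and 0 in the control libraries. The part of such cells in the Ly6 results was not tested. Of 8 endothelial markers, 5 to 7 had a count, and their sum was 35.8 and 34.6 CPM in 4T1 medium, 26.7 and 23.8 CPM in 67NR medium, and 14.3 and 16.2 CPM in control medium. Of the 4 endothelial markers tested, 1 rose and 2 fell in 4T1 against control medium, where 19.9% of all genes rose and 19.2% fell. Emcn gave most of that sum and rose to 34.1 ± 0.871 CPM in 4T1 medium, against 12.1 ± 0.622 CPM in control medium (edgeR adjusted p = 1.10e-07). Kdr had 1 and 0 counts in the 4T1 libraries, 32 and 28 in the 67NR libraries, and 16 and 22 in the control libraries. Against control medium, Kdr fell in 4T1 medium (log2 fold change -5.00 ± 0.85, edgeR adjusted p = 4.68e-04), and so did Tek (-2.39 ± 0.52, edgeR adjusted p = 0.00279). Prox1 had 0 counts throughout. The 8 epithelial and tumour markers summed to 2.23 and 1.58 CPM in 4T1 medium, 6.02 and 5.74 CPM in 67NR medium, and 8.83 and 7.58 CPM in control medium, with Epcam and Cldn4 at 0. In bulk RNA, fewer cells of a type and less RNA per cell cannot be told apart.

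The genes whose levels over the 6 libraries were most like those of each Ly6 gene were found by the Euclidean distance of log2(CPM + 0.5), centred on the control libraries. Serpina3i, of the serine protease inhibitors, was nearest to Ly6a (distance 0.88), Ly6c1 (1.26) and Ly6c2 (0.67) and next after Gda for Ly6i (0.74). Serpina3i had 20.2 ± 2.81 CPM in 4T1 medium, 0.0232 ± 0.0328 CPM in 67NR medium and 0.0519 ± 0.0734 CPM in control medium, and it has close copies too. Serpina3i, Steap4, Gda and Npy4r, like Ly6c2 and Ly6i, lay near or below the offset of 0.5 outside 4T1 medium. Their distances and places hold for that offset only, and another was not run. Ccl9, a chemokine, came next for Ly6a (1.05) and Ly6c1 (1.42), at 245 ± 8.62 CPM in 4T1 medium, 7.34 ± 0.289 CPM in 67NR medium and 4.96 ± 0.553 CPM in control medium. After them came Cxcl5 for Ly6a (1.20) and Steap4 for Ly6c1 (1.42), while Il6 (0.83) and then Ccl9 (1.24) followed Serpina3i for Ly6c2. Nearest to Ly6i was Gda, a guanine deaminase (0.46), with Npy4r, a neuropeptide Y receptor, in place 3 (0.92). Among the Ly6 genes themselves, Ly6a and Ly6c1 were 0.43 apart, Ly6a and Ly6c2 0.62, and Ly6a and Ly6i 1.26. Ly6e was 4.42 or more from each of the others, and its own neighbours were Ak5 (0.30), Acvr1b (0.30) and Olfr1033 (0.31), of which Acvr1b, an activin receptor, had 33.9 ± 0.183 CPM in 4T1 medium, 16.6 ± 1.20 CPM in 67NR medium and 9.61 ± 1.39 CPM in control medium.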

How the data were processed

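Per the labels' protocols, 500 ng of total RNA per sample went into poly(A)-selected, strand-marking libraries. The authors deposited whole-number read counts per gene symbol, as an unfiltered table, used here, and a filtered table with the same values for 14629 genes, 4 of the 9 Ly6 genes among them. The submitters' processing notes name Subread, mm10 and DESeq2 1.32.0. Not given in the sources used here are the read length, the strand setting and the annotation. Totals were 13.6 M to 21.8 M counts.

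Counts were filtered with filterByExpr (minimum count 10, minimum total 15), scaled by TMM (trimmed mean of M-values) and fitted with edgeR 4.0.16 (quasi-likelihood test, 6 libraries in 3 groups of 2, 3 residual degrees of freedom, Benjamini-Hochberg over 15055 genes, threshold 0.05) in R 4.3.3. The standard error was taken as the size of the log2 fold change over the root of its F value. The code was tested on simulated data. CPM use TMM-scaled totals. Counting intervals are exact, at 95%, and cover counting error only. Alignments used Biopython 1.88 on GENCODE M21, which holds 53292 of the 55367 symbols. The principal transcript is the lowest-numbered one with the CCDS and APPRIS principal tags.

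The Ly6 genes, the gene lists and the tests were chosen with earlier results of these data known. Named are all 9 Ly6 genes, genes from up to 3 called per list and comparison with the largest log2 fold change at 5 CPM or more in the higher group, and the 3 nearest genes of at least 1 CPM per Ly6 gene. Kdr, Tek, Stat3, Csf1r, Cd68, Fcer1g, the stroma markers and the markers at 0 or 1 count were named after their values were seen. Alternatives tried were scaling by DESeq2 size factors or by totals, no filter on low counts, a replicate block, leaving out each library, the Wald test of DESeq2 1.42.0, and sums of paralogs.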

Additional observations from a re-analysis of the deposited data

How the results depend on the processing

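In none of the 165 pairs of a Ly6 log2 fold change and an alternative did the adjusted p cross the threshold, which is given as a description since these contrasts chose the genes. Over the alternatives the log2 fold change of 4T1 over control medium ranged from 5.78 to 5.93 for Ly6a, from 6.13 to 6.21 for Ly6c1, from 6.52 to 6.68 for Ly6c2, from 6.01 to 6.23 for Ly6i and from 1.90 to 2.03 for Ly6e. For 4T1 over 67NR medium it ranged from 5.91 to 6.04 for Ly6a, from 6.36 to 6.62 for Ly6c1, from 7.03 to 8.06 for Ly6c2, from 5.36 to 6.41 for Ly6i and from 1.15 to 1.25 for Ly6e, and the ends for Ly6c2 and Ly6i came without the first or second 67NR library. For 67NR over control medium, Ly6e ranged from 0.70 to 0.84, Ly6a from -0.20 to -0.04 and Ly6c1 from -0.44 to -0.19. Ly6c2 ranged from -1.47, without the second 67NR library, to -0.43, without the first. Ly6i ranged from -0.29 to 0.77, so that it has no direction there. The number of the 9 genes called stayed at 5 for 4T1 against control medium, 1 for 67NR against control medium and 5 for 4T1 against 67NR medium under each alternative. The number of all genes called for 67NR against control medium, 4150 with all libraries, ranged from 2207 to 5358 when 1 library was left out. It was 2207 and 2359 without the first or second 67NR library, and 2437 and 2380 without the first or second control library, where the spread of the lone library is borrowed from the other groups. The same range was 3967 to 5881 for 4T1 against control medium and 4702 to 6537 for 4T1 against 67NR medium. Over all genes tested, libraries of the same number did not deviate together (correlations of 0.08, 0.02 and -0.05 between groups). Each group gives only 1 difference between its libraries, so these correlations cannot decide whether the samples were paired. With the replicate number as a block, 6057 genes were called for 4T1 against control medium (5888 without the block), 4382 for 67NR against control medium (4150) and 6668 for 4T1 against 67NR medium (6531), and the block changed no call of a Ly6 gene. Of the 6 other family genes tested, 4 or 5 were called for 4T1 against control medium, 2 to 4 for 67NR against control medium and 4 for 4T1 against 67NR medium over the alternatives. The GPI anchor, interferon and marker lists were not run under them. Depth limits Ly6c2 and Ly6i outside 4T1 medium, at 3 to 14 counts per library, and the 4 genes at or near 0.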
